A study of Mus musculus with 48 samples.

Results

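A pair of gene-dense segments of the mouse genome, known for duplicated KRAB zinc-finger genes, was followed through DNA methylation profiles of the amygdala. The segments were taken by position in GRCm38: every enriched locus of the count table that lay inside chromosome 2 from 175000000 to 177600000, or inside chromosome 4 from 145100000 to 147900000. This gave 77 loci on chromosome 2 and 271 on chromosome 4, together 348 of the 187695 loci counted in every mouse. The annotation used does not mark KRAB domains, so the label was set beside gene names here and beside zinc-finger sequence further on. The chromosome 2 window held 75 annotated genes, of which 38 were protein-coding, 36 were pseudogenes and 7 carried a Zfp name, and the chromosome 4 window held 102 genes, of which 28 were protein-coding, 61 were pseudogenes and 18 carried a Zfp name. The outer edges of the chromosome 4 window also took in genes of other kinds (Vps13d, Tnfrsf1b, Tnfrsf8, Miip, Fv1 and Mfn2), which overlapped 14 loci.

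The mice were males aged 4 months on a C57BL/6N background (C57BL/6 in the labels) and came from heterozygous Tph2 parents. Tph2 encodes the enzyme that makes serotonin in brain neurons, and the deletion was constitutive, so that it was present in every tissue from conception. Pups of each genotype, Tph2+/+ (WT), Tph2+/- (HET) and Tph2-/- (KO), either stayed undisturbed with the dam (C) or were taken from her for 3 h daily between postnatal days 2 and 15 (maternal separation, MS), and each of the 6 groups (WT C, WT MS, HET C, HET MS, KO C and KO MS) had 8 mice. All of them were housed singly and went through behavioural tests before the amygdala of both hemispheres was collected. DNA fragments that carry methylated CpG sites were captured with a methyl-binding domain protein and sequenced (MBD-seq). A count is therefore the number of captured fragments assigned to a locus, not a percentage of methylation.

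Total counts per library ran from 7.72 to 14.1 Mcounts (M for mega), with a median of 10.7 Mcounts. Of these, 2649 to 5914 counts fell in the chromosome 2 loci and 14542 to 30551 in the chromosome 4 loci. The levels below are counts per Mcount after trimmed-mean scaling (CPM), and the comparisons used 46 libraries, because KO MS replicates 3 and 7, which had the lowest totals of their group at 8.09 and 8.23 Mcounts, were left out. Sample numbers S1 to S17 and S42 to S48 were all C mice and S18 to S41 were all MS mice, so any difference between these runs of numbers and the effect of MS cannot be told apart. Libraries S18 to S26 stood apart, in that capture leaned more strongly towards CpG-rich loci: the change in log2 level per SD of CpG density, relative to the average library, was 0.118 ± 0.115 (SD, n = 9) there against -0.0206 ± 0.0361 (SD, n = 17) in S1 to S17. Where a single locus described below was called with these libraries and not without them, both values are given. The capture of bulk tissue also cannot tell apart fewer methylated cells from less methylation per cell, and, since no input DNA was analysed here, more methylation of a sequence from more copies of it in the genome.

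KRAB zinc-finger proteins form the largest family of transcriptional repressors in mammals. Each binds DNA through a row of C2H2 zinc fingers encoded in a common exon, and its KRAB domain recruits TRIM28 and, through it, the histone methyltransferase SETDB1, HP1 proteins and DNA methylation, above all at transposable elements. Their genes multiply by tandem duplication, so that neighbouring members keep almost identical sequence over long stretches, and short reads from a given copy can often be placed on another. Zinc-finger exons of such genes are known to carry heterochromatin marks themselves.

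The fingers are joined by a conserved linker whose codons recur along the exon. Runs of 3 or more matches to the linker letters ACNGGNGANAANCC (either strand, all matches of a run on the same strand, gaps of at most 300 bases) were used to locate the finger arrays in the genome. The chromosome 2 window held 47 such arrays and the chromosome 4 window 32. Capture passed over nearly all of them, since a locus overlapped 1 array in each window, and the sequences below show a captured array, an uncaptured chromosome 2 array with many copies and an array without CpG sites. Capitals mark CpG sites, the only bases through which this assay sees methylation, and each array is shown over its first 252 bases, in the reading direction of the linkers. The captured array lay in coding sequence of Gm14403, the uncaptured chromosome 2 array in that of 2210418O10Rik and the CpG-free chromosome 4 array in that of Zfp989.
Gm14403 array, captured, chr2:177508722-177508973, plus strand: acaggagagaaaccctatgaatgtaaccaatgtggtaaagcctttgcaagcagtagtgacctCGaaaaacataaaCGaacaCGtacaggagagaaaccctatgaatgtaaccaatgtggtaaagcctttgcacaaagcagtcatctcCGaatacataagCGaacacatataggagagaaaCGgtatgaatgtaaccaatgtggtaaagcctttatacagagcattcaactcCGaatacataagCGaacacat
2210418O10Rik array, not captured, chr2:176237051-176237302, plus strand: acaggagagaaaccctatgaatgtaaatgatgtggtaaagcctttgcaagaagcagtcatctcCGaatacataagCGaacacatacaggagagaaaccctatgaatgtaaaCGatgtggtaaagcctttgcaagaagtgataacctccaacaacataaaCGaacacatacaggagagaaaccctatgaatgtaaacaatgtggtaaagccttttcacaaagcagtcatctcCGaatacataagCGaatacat
Zfp989 array, not captured, chr4:146989556-146989807, plus strand: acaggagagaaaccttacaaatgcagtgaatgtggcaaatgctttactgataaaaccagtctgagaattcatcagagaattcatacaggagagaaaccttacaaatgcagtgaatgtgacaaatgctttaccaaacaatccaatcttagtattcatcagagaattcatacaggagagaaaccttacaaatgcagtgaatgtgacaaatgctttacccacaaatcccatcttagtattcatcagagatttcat
The stretches hold 8, 6 and 0 CpG sites in 252 bases. The chromosome 2 arrays had CpG sites to capture and the chromosome 4 arrays mostly did not: median CpG density over the whole array was 14.7 per kb (8.75 to 23.3) on chromosome 2 and 1.82 per kb (0 to 15.7) on chromosome 4, where 12 of 32 arrays had no CpG site at all. Outside both windows, 506 arrays had a median of 7.55 CpG sites per kb, and 114 of them (22.5%) were overlapped by a locus. CpG density set the captured ones apart there, at a median of 27.1 per kb against 5.89 in those without a locus.

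Copy number in the reference went with capture outside the windows, while inside them few arrays were captured with or without a copy. An array counted as copied where at least 50% of it matched another place in the genome at 95% identity or more. Of the 47 chromosome 2 arrays, 38 had such a copy and 0 of these 38 were overlapped by a locus. The other 9 had no copy and 10 or more CpG sites per kb, and 1 of them (11.1%) was overlapped. This was the captured Gm14403 array, with 8 linkers and 16 CpG sites. Elsewhere in the genome, arrays with 10 or more CpG sites per kb were overlapped in 93 of 163 cases (57.1%) where they had no copy and in 10 of 36 cases (27.8%) where they had a copy. How reads that match several places were handled upstream is not given in the sources used here, so that low capture and discarded reads cannot be told apart at copied arrays. The captured chromosome 4 array, chr4:146718211-146718728 in an intron of Gm26573, had 7.72 CpG sites per kb and 2 copies.

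With their arrays mostly uncaptured, the loci lay mostly between genes on chromosome 2 and mostly in introns and noncoding exons on chromosome 4. On chromosome 2, 67 of 77 loci (87%) were intergenic, 6 lay in noncoding exons, 2 in coding sequence and 2 in introns, and Zfp970 was the sole Zfp-named gene of 7 that held a locus. On chromosome 4, 114 of 271 loci (42.1%) were intronic, 66 (24.4%) intergenic, 60 lay in noncoding exons, 16 in untranslated exons and 15 in coding sequence, and 16 of 18 Zfp-named genes held a locus. Much of the chromosome 4 window is spanned by long noncoding RNAs, with Gm26573 overlapping 77 loci, C230088H06Rik 69 and Gm26624 48.

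The clusters differed in how densely they were covered. Chromosome 2 had 29.6 loci per Mb and 3.43% of its length in loci, below the 68.9 loci per Mb and 7.49% of the genome as a whole, whereas chromosome 4 had 96.8 loci per Mb and 13.2%. Median width was 915 bases (433 to 3840) on chromosome 2, 1073 bases (523 to 9390) on chromosome 4 and 916 bases over all loci. Depth per length was close to that of the genome, with a median of 32.3 counts per kb on chromosome 2, 34.3 on chromosome 4 and 30.1 over all loci. The upper end of chromosome 4 reached further, to 276 counts per kb against 112 on chromosome 2. Median CpG density was 22.8 per kb on chromosome 2, 15 on chromosome 4 and 18.2 over all loci, and loci under 10 CpG sites per kb numbered 1 of 77, 61 of 271 (22.5%) and 11.4% respectively.

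**Figure D1:**
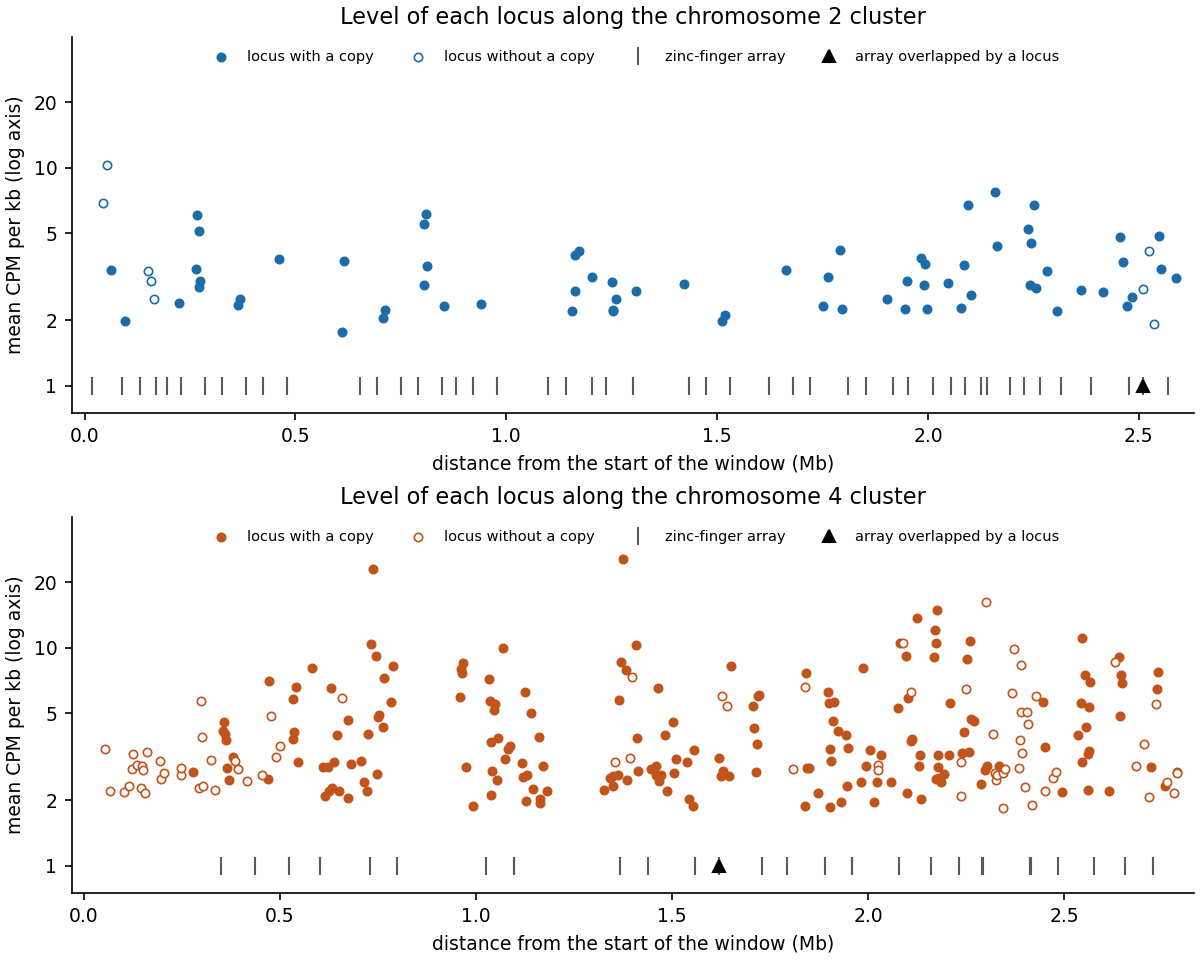
Mean level of each locus over 46 libraries in CPM per kb (log axis) against its distance from the start of the window in Mb, for the chromosome 2 cluster (upper panel) and the chromosome 4 cluster (lower panel). Filled points are loci with a copy elsewhere in the reference, open points loci without, ticks are the 47 and 32 zinc-finger arrays, and the triangle marks the 1 array per window that a locus overlapped. Chromosome 2 points lie sparsely up to 10.3 CPM per kb, and chromosome 4 points crowd the window and reach 25.6.

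Repeats and copies made up most of the chromosome 2 loci. The median share of a locus in masked repeats was 77.6% on chromosome 2, 36.9% on chromosome 4 and 23.2% over all loci, and a copy at 95% identity over 50% of the locus existed for 69 of 77 loci (89.6%), 194 of 271 (71.6%) and 8.76% respectively. Most of the copies were local: 243 of the 348 loci had a copy inside their own window, 62 of them on chromosome 2. Linked by such matches, 63 of the 77 chromosome 2 loci fell into 15 families, and chromosome 4 had 49 families that left out 113 of its 271 loci. A family of 2 loci joined the windows, chr2:177156266-177159518 and chr4:147837723-147841113, and its members had the same mean level of 7.75 CPM per kb.

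Copies of a family differed in level. The largest family had 17 loci spread over 2.19 Mb of chromosome 2, with 22.1 to 32.3 CpG sites per kb and mean levels from 1.98 to 6.14 CPM per kb. Its highest copy thus exceeded its lowest 3.11 times. A stretch of the lowest copy, near Zfp967, is shown for the CpG-rich sequence that the family repeats.
Family of 17, lowest copy (chr2:176511981-176512868), shown chr2:176512429-176512628, minus strand: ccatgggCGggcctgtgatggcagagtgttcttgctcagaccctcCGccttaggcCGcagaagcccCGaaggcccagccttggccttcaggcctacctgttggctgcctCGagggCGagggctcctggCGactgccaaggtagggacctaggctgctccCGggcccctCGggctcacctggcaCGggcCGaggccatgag
The 200 bases hold 11 CpG sites. The second family, 14 loci on chromosome 2, ran from 1.76 to 5.5 CPM per kb, and the third, 6 loci, stayed within 2.25 to 2.68. Over all families the highest copy exceeded the lowest by a median of 1.36 times on chromosome 2 and 1.22 times on chromosome 4. The largest ratio on chromosome 4 was 3.98, in a family of 4 CpG-rich loci (58.6 to 65.4 CpG sites per kb) whose levels were 3.76, 6.62, 9.04 and 14.9 CPM per kb. Members of a family share sequence and may share reads, and they were not treated as independent.

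**Figure D2:**
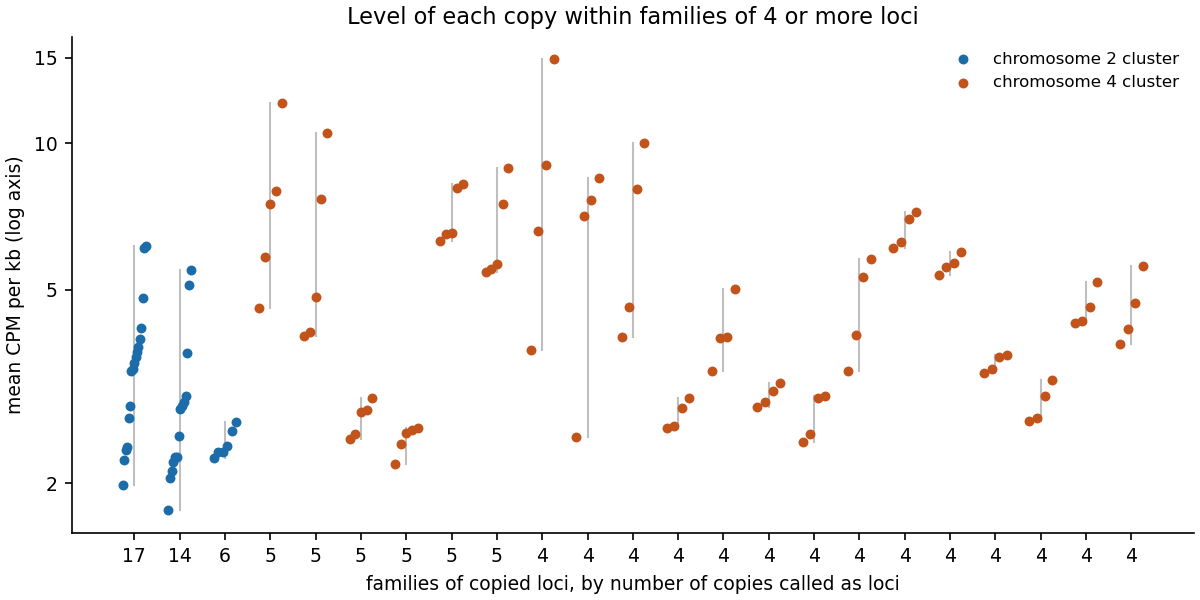
Mean level over 46 libraries in CPM per kb (log axis) of each locus in the families with 4 or more members, with the number of loci in the family on the horizontal axis; points of a family are ordered by level and the grey line spans its range. The family of 17 on chromosome 2 spreads from 1.98 to 6.14, while the family of 6 stays between 2.25 and 2.68.

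The highest level on chromosome 2 was at its widest locus, chr2:175041364-175045203 near the gene Gm14445, which measured 3840 bases, lay almost wholly in repeats (99.7%) and averaged 26.5 CPM. Its group medians ranged from 24.7 CPM in WT C to 27.9 CPM in KO MS. Per length, chr2:175052574-175054727 near Gm14393 was highest with 10.3 CPM per kb and 45 CpG sites per kb. The narrowest locus, chr2:176763667-176764099, had 433 bases and a mean of 14.7 counts.

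On chromosome 4 the highest level was again at the widest locus, chr4:147218562-147227951, in a shared intron of C230088H06Rik and Gm26624. It measured 9390 bases with 334 CpG sites, and its mean was 128 CPM. The lowest library of each group had between 103.3 CPM (WT C) and 110.4 CPM (KO MS). Median and highest values were 119.9 and 137.1 CPM in WT C, 134.3 and 186.3 in WT MS, 119.6 and 132.4 in HET C, 120.5 and 169.5 in HET MS, 120.4 and 161.1 in KO C and 129.4 and 248.5 in KO MS. The groups overlapped, and the highest value of each MS group was in a library of S18 to S26. Those libraries averaged 162.1 ± 42.2 CPM (SD, n = 8). The other MS libraries averaged 121.3 ± 10.6 CPM (SD, n = 14) and S1 to S17 125.1 ± 13.8 (SD, n = 17). Over genotypes the log2 change with MS was 0.18 ± 0.07 (± SE), and without S18 to S26 it was -0.01 ± 0.06. Per length, chr4:146473983-146476382, an exon of the noncoding genes Gm13241 and Gm26573, was highest with 25.6 CPM per kb. The narrowest locus, chr4:145250907-145251429 near Tnfrsf1b, had 523 bases and a mean of 15.6 counts.

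Summed over a cluster, the levels of the groups lay close together. Group means of the chromosome 2 sum were 348 ± 30.5 CPM in WT C, 371 ± 38 in WT MS, 352 ± 25.5 in HET C, 363 ± 42.3 in HET MS, 354 ± 22.4 in KO C (each SD, n = 8) and 387 ± 84.6 in KO MS (SD, n = 6). The chromosome 4 sums were 2045 ± 51.4, 2055 ± 183, 2064 ± 120.4, 2018 ± 142, 2059 ± 70.9 and 2093 ± 293 CPM in the same order. Means of all groups lay within the SD of the KO MS mice, and SDs were wider in the MS group of every genotype. Libraries S18 to S26 carried much of that width: they averaged 413 ± 66.6 and 2197 ± 251 CPM (SD, n = 8), against 349 ± 25.9 and 1969 ± 95.2 (SD, n = 14) in the other MS libraries.

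Promoters were captured on chromosome 4. RefSeq gave 41 promoter windows on chromosome 2 (250 bases before to 50 after the gene start), with a median of 2 CpG sites, and 0 of them touched a locus. On chromosome 4, 8 of 34 (23.5%) touched a locus, against 3433 of 32851 (10.5%) in the genome: those of Zfp600, Gm13165, Zfp993, Rex2, Zfp988 and Zfp979, and a pair listed for Zfp982. The upstream Zfp982 promoter is printed here, as the most CpG-rich cluster locus called for MS lay on it.
Zfp982 promoter, chr4:147442864-147443163, plus strand: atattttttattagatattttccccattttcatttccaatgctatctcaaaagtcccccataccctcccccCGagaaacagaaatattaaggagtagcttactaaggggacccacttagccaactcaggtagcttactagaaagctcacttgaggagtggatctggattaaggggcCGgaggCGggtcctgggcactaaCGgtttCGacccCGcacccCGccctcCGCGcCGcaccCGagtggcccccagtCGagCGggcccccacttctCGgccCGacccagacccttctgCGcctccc
The window has 16 CpG sites, and the locus over it, chr4:147442819-147443596, had 65.6 CpG sites per kb. By the GENCODE annotation this locus overlapped Gm13161, C230088H06Rik and Gm26624, and not Zfp982. Counts there were low, with a mean of 15.4. Mean levels were 1.02 ± 0.407 CPM in WT C, 2 ± 0.915 in WT MS, 1.03 ± 0.333 in HET C, 1.36 ± 0.553 in HET MS, 1.29 ± 0.568 in KO C (each SD, n = 8) and 1.98 ± 1.38 in KO MS (SD, n = 6). MS means were higher in every genotype, by 0.65 ± 0.18 on the log2 scale (± SE) over genotypes, which in edgeR's quasi-likelihood test had a p of 5.39e-04 before and of 0.138 after adjustment over all loci. The rise lay in S18 to S26, which averaged 2.57 ± 1.05 CPM (SD, n = 8) against 1.29 ± 0.52 in the other MS libraries (SD, n = 14) and 1.16 ± 0.494 in S1 to S17 (SD, n = 17). The change without S18 to S26 was 0.17 ± 0.21, and the locus was no longer called. At the other promoters the log2 change with MS ran from -0.43 at Zfp993 to -0.01 at Gm13165. Among them the loci of Zfp993 (-0.43 ± 0.14), Zfp988 (-0.35 ± 0.13) and Zfp979 (-0.29 ± 0.09) were called lower. Without S18 to S26 their changes were -0.36 ± 0.15, -0.20 ± 0.13 and -0.22 ± 0.10, and none was called.

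Spread between mice of the same group was, at the median, wider in both clusters than at loci of like level in the genome. The measure was the dispersion of the locus itself divided by the dispersion that all loci of that level had on average. Its median was 1.16 on chromosome 2, 1.25 on chromosome 4 and 0.928 over all loci, and it exceeded 2 at 20 of 77 loci (26%), 61 of 271 (22.5%) and 5.42% respectively. The 257 chromosome 4 loci outside the edge genes had a median of 1.27 and the 14 inside them a median of 1. Loci in Zfp-named genes elsewhere in the genome, 951 in all, had a median of 0.921. With a mean count of 20 or more required, the chromosome 4 median was 1.1, and without S18 to S26 it was 1.17.

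Sparse CpG went with wide spread on chromosome 4. The median ratio was 2.15 at the 8 loci under 5 CpG sites per kb and 2.02 at the 53 loci with 5 to 10. It was 1.3 at the 75 loci with 10 to 15 and 0.87 at the 57 with 15 to 20. At the 40 loci with 20 to 25 it was 0.592, and at the 38 with 25 or more it was 0.935. In the genome the same classes had medians of 1.08, 1.01, 0.949, 0.907, 0.855 and 0.991. By group, the median SD of log2 CPM over the chromosome 2 loci was largest in KO MS (0.502) and WT MS (0.485) and between 0.375 and 0.386 in the other groups. Over the chromosome 4 loci it was higher in MS than in C in WT (0.417 against 0.313) and KO (0.470 against 0.352), and lower in HET (0.362 against 0.385). All loci showed the same directions, with 0.414 against 0.357 in WT, 0.432 against 0.364 in KO and 0.377 against 0.391 in HET. On this scale, which takes no account of level, the chromosome 4 median was below that of all loci in WT C, HET C, HET MS and KO C, at 0.876 to 0.985 times it, and above it in WT MS and KO MS, at 1.01 and 1.09 times.

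The loci with the widest spread of each window were the ones that overlap a zinc-finger array. The Gm14403 locus, chr2:177508387-177509367, with 7 linkers in its own bounds, had a ratio of 4.26. Lowest, median and highest levels were 1.8, 2.9 and 3.36 CPM in WT C, 0, 2.28 and 4.93 in WT MS, 1.54, 3.04 and 4.88 in HET C, 1.81, 2.68 and 3.7 in HET MS, 2.06, 3.34 and 4.47 in KO C and 0.555, 2.19 and 3.74 in KO MS. The low values gathered in S18 to S26, whose mean was 1.18 ± 0.794 CPM (SD, n = 8) against 3.16 ± 0.902 (SD, n = 14) in the other MS libraries and 3.06 ± 0.84 (SD, n = 17) in S1 to S17. The Gm26573 locus on chromosome 4, chr4:146718329-146719461, had the ratio 6.65 and the same arrangement, with 1.68 ± 0.917 CPM in S18 to S26 (SD, n = 8), 3.77 ± 1.55 in the other MS libraries (SD, n = 14) and 3.74 ± 1.39 in S1 to S17 (SD, n = 17). Across the 6 groups its lowest values ran from 0.545 to 2.86 CPM and its highest from 4.99 to 8.41, so that all groups overlapped. The MS difference was -0.30 ± 0.20 (log2 ± SE) at Gm14403 (adjusted p = 0.581 in edgeR, 0.145 before adjustment) and -0.44 ± 0.22 at Gm26573 (adjusted p = 0.414, 0.0522 before adjustment), and without S18 to S26 it was 0.10 ± 0.13 and -0.09 ± 0.22.

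Other wide loci were of different make. On chromosome 2 they were chr2:176982367-176983535 near Gm14419 (ratio 3.37) and chr2:175461141-175462055 near Zfp965 (ratio 3.33), the latter a member of the family of 17. On chromosome 4 they were chr4:147427490-147429534, in an intron of C230088H06Rik and Gm26624 with 6.36 CpG sites per kb (ratio 4.69), and chr4:147157051-147158381, in an intron of Zfp991 (ratio 4.6).

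**Figure D3:**
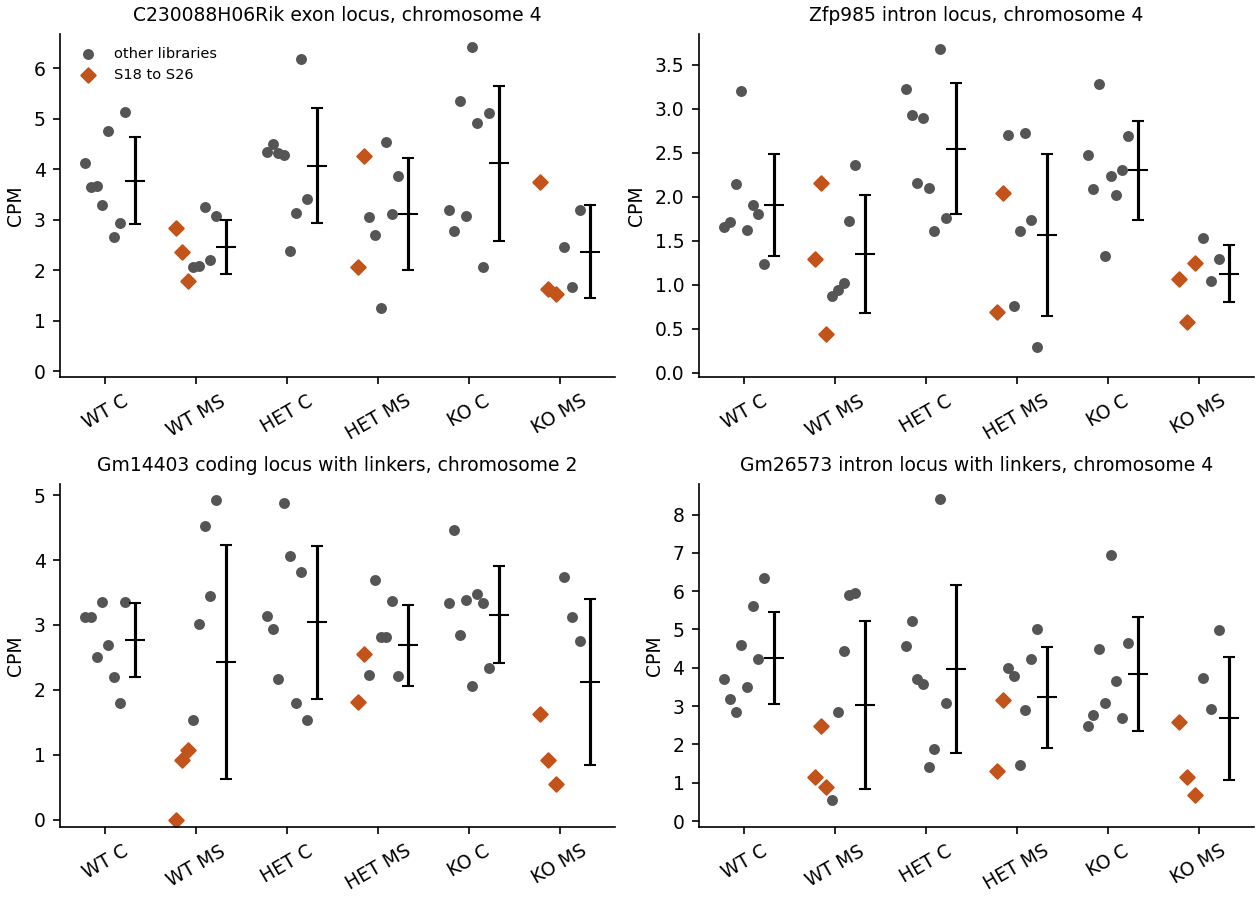
Level in CPM of 4 loci in each of the 46 libraries by group, with mean and SD beside the points (n = 8, and n = 6 in KO MS); diamonds are libraries S18 to S26. The upper panels show the C230088H06Rik exon locus and the Zfp985 intron locus, where the MS groups average below the C groups, and the lower panels the Gm14403 and Gm26573 loci with zinc-finger linkers, where the low MS values are mostly diamonds.

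Most of the calls in the clusters were in the comparisons of MS with C. A locus was counted as called where the unadjusted p of edgeR's quasi-likelihood test was under 0.01 and the log2 change was beyond 0.2 in either direction. Over the 3 genotypes 60 of 271 chromosome 4 loci were called between MS and C, 56 of them lower and 4 higher in MS, and 4 of 77 chromosome 2 loci, 1 of them lower and 3 higher. Of all 187695 loci 3.63% were called and 1.35% were called lower. The chromosome 4 log2 change had a median of -0.090 and was negative at 187 of 271 loci (69%), where all loci had a median of 0.002. The chromosome 2 median was 0.037. No filter on low counts was applied, so that all 348 loci were tested. Of the 14 loci of the edge genes 0 were called. The share called was 39 of 194 (20.1%) with a copy and 21 of 77 (27.3%) without.

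Calls lower in MS were most frequent at low CpG density. On chromosome 4 they took in 6 of 8 loci (75%) under 5 CpG sites per kb, 26 of 53 (49.1%) with 5 to 10, 19 of 75 (25.3%) with 10 to 15 and 3 of 57 (5.26%) with 15 to 20. Of all loci in the same classes 2.81%, 2.78%, 1.86% and 1.42% were called lower. At 25 or more CpG sites per kb, 3 of 38 chromosome 4 loci (7.89%) and 3 of 28 chromosome 2 loci were called higher, beside 7.97% of all loci. Without S18 to S26, 1 locus of both clusters was called higher. The 61 chromosome 4 loci under 10 CpG sites per kb had a median log2 change of -0.39, and 59 of them were negative, whereas the 21411 such loci of the genome had a median of -0.03. These classes were chosen with the results known, and no test was run over them.

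**Figure D4:**
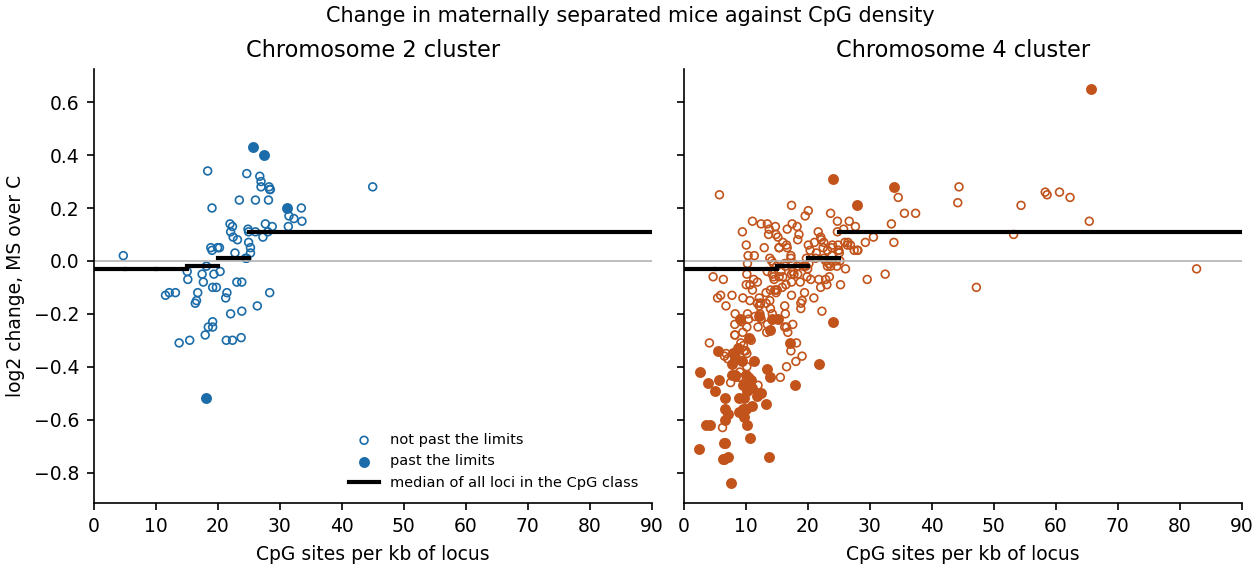
Log2 change of MS against C over genotypes for each locus (vertical axis) against its CpG sites per kb (horizontal axis), for the chromosome 2 cluster (left) and the chromosome 4 cluster (right). Filled points passed the limits (p under 0.01 and log2 change beyond 0.2) and black bars are the medians of all 187695 loci by CpG class. The chromosome 4 loci under 10 CpG sites per kb lie far below the bar, at a median of -0.39 against -0.03.

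Summed per library, these 61 sparse chromosome 4 loci gave 214 ± 33.2 CPM in WT C, 158.4 ± 42.1 in WT MS, 206 ± 40.9 in HET C, 168 ± 30 in HET MS, 198 ± 47 in KO C (each SD, n = 8) and 151 ± 34.7 in KO MS (SD, n = 6). The MS mean was lower in each genotype, and C and MS libraries overlapped, with ranges of 143.9 to 284.3 CPM in C and 105.1 to 235.3 in MS. The highest library exceeded the lowest 2.7 times, while the sum of all other loci under 10 CpG sites per kb differed 1.25 times between libraries (48319 to 60280.3 CPM). Mean sums were 145 ± 28.9 CPM in S18 to S26 (SD, n = 8) and 168 ± 36.4 in the other MS libraries (SD, n = 14), beside 199.8 ± 32.6 in S1 to S17 (SD, n = 17) and 221 ± 52.6 in S42 to S48 (SD, n = 7). CpG-rich chromosome 4 loci (20 or more sites per kb) went the other way in S18 to S26, with 1399 ± 293 CPM there (SD, n = 8) and 1074 ± 87.2 in the other MS libraries (SD, n = 14), against 1123 ± 79.1 in S1 to S17 (SD, n = 17).

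**Figure D5:**
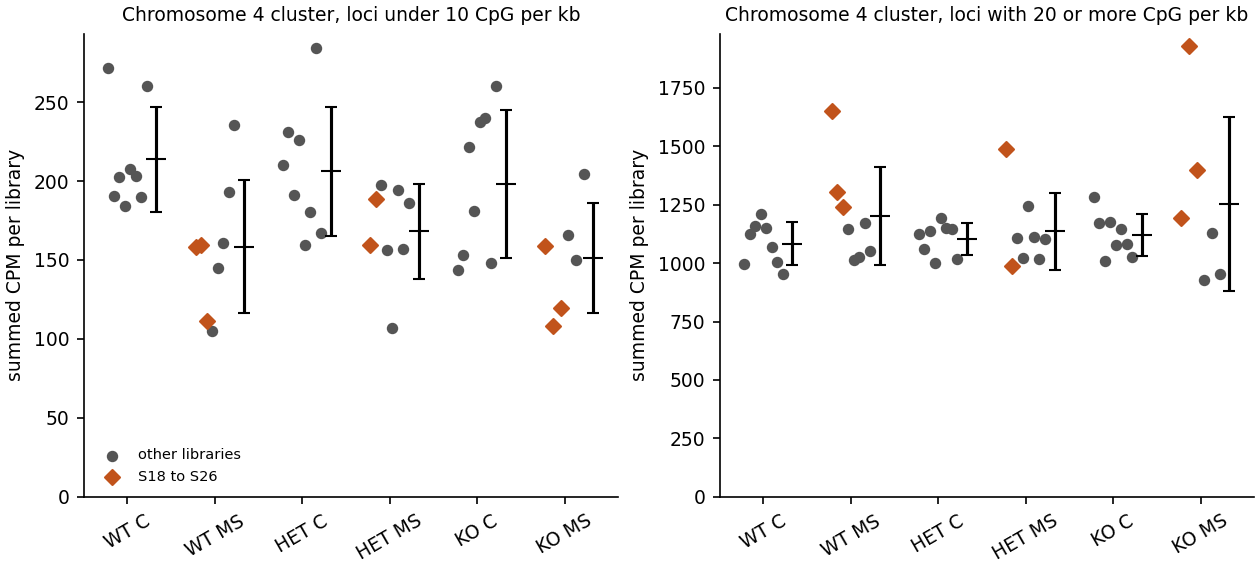
Summed CPM per library of the chromosome 4 loci under 10 CpG sites per kb (left) and with 20 or more (right), by group, with mean and SD beside the points (n = 8, and n = 6 in KO MS); diamonds are libraries S18 to S26. On the left the MS groups average 151 to 168 CPM and the C groups 198 to 214, and on the right the highest values, up to 1929, are diamonds.

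Leaving out S18 to S26 took the called loci of both clusters from 64 to 27, or from 18.4% to 7.76%. The share of all loci called fell as well, from 3.63% to 1.26%. Of the 27, 20 were among the 64, and 63 of the 64 kept their sign. At the sparse chromosome 4 loci 17 of 61 (27.9%) were then called lower, where 1.27% of all such loci were, with a median log2 change of -0.30. With the CpG slope of each library as a covariate 22 of 61 (36.1%) were called lower, against 1.59% of all such loci, with a median of -0.31. Without S18 to S26 and S42 to S48 there were 12 of 61 (19.7%) against 1.35% of such loci, and 54 were negative. The part that the order of libraries had in the remaining difference cannot be told apart from MS.

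After adjustment over all loci 24 (0.0128%) passed an adjusted p of 0.05 for MS, and 1 of them was in the clusters: chr4:147231691-147232731, an exon of the noncoding genes C230088H06Rik and Gm26624 and of the pseudogene Gm13147, with 7 CpG sites in 1041 bases and 3 copies in the window. A stretch of it is shown for how thinly its CpG sites are sown.
Locus of C230088H06Rik, shown chr4:147232087-147232336, plus strand: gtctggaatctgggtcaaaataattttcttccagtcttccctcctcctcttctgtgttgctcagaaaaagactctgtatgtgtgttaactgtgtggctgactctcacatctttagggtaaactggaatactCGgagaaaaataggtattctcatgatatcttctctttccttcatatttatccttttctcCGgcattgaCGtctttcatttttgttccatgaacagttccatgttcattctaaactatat
The 250 bases hold 3 CpG sites. Lowest, median and highest levels were 2.66, 3.65 and 5.12 CPM in WT C and 1.78, 2.29 and 3.24 in WT MS, 2.38, 4.3 and 6.18 in HET C and 1.26, 3.08 and 4.54 in HET MS, and 2.07, 4.05 and 6.42 in KO C and 1.53, 2.07 and 3.74 in KO MS. MS medians were lower in each genotype and the ranges overlapped. The log2 change was -0.60 ± 0.12 (± SE), with an adjusted p of 0.0458 in edgeR's quasi-likelihood test. Without S18 to S26 it was -0.57 with an adjusted p of 0.3 in edgeR, and the locus was still called by the unadjusted limits. With a term for the late C libraries S42 to S48 it was -0.57 with 0.129, and with the CpG slope as a covariate -0.50 with 0.178. Without S18 to S26 and S42 to S48 it was -0.54 with 0.129. The adjusted p was thus above 0.05 under each of these settings.

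Next in order came chr4:147571016-147571738, in an intron of Zfp985, with 10 CpG sites and no copy. Lowest, median and highest levels were 1.24, 1.75 and 3.2 CPM in WT C and 0.444, 1.16 and 2.36 in WT MS, 1.61, 2.52 and 3.68 in HET C and 0.29, 1.67 and 2.72 in HET MS, and 1.33, 2.27 and 3.28 in KO C and 0.578, 1.15 and 1.53 in KO MS. The groups overlapped in each genotype. The log2 change over genotypes was -0.74 ± 0.16, with an adjusted p of 0.0546 in edgeR. Levels by run of sample numbers were alike for both MS runs here, at 1.19 ± 0.641 CPM in S18 to S26 (SD, n = 8) and 1.47 ± 0.733 in the others (SD, n = 14), against 2.27 ± 0.628 in S1 to S17 (SD, n = 17). The log2 change without S18 to S26 was -0.65 ± 0.17 (adjusted p = 0.468 in edgeR), and the locus was still called.

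Copies of a family could move together. A family of 4 chromosome 4 loci with 9.77 to 11 CpG sites per kb was called lower in MS at every copy: the log2 change was -0.62 ± 0.15 near the pseudogene Znf41-ps, -0.55 ± 0.17 in a Gm26573 intron, -0.67 ± 0.17 in an intron of Zfp993 and -0.59 ± 0.20 in an intron of Zfp991 (± SE). Their spread ratios lay between 2.85 and 4.6, and as they are near-identical these are not independent measurements. Their means in S18 to S26 were 1.64 to 2.02 CPM, in the other MS libraries 2.56 to 3.52 and in S1 to S17 3.08 to 4.25. Without S18 to S26 the changes were -0.31 to -0.38, and 0 of the 4 copies were called. On chromosome 2, both copies of the pair chr2:176170934-176171991 and chr2:176982367-176983535 were called higher, by 0.40 and 0.43. The rise lay in S18 to S26, with 6.83 and 6.96 CPM against 4.06 and 4.23 in the other MS libraries and 4.1 and 4.17 in S1 to S17. Both changes were close to 0 when S18 to S26 were left out, at 0.05 ± 0.12 and 0.08 ± 0.12, and neither copy was called. Another chromosome 2 pair parted, with 0.20 at chr2:177250764-177253395 (31.2 CpG sites per kb) and -0.52 at chr2:177255742-177256566 (18.2 per kb), both past the limits. They were 0.08 and -0.39 without S18 to S26, and neither was past the limits.

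Within genotypes fewer loci passed. In WT mice 1 chromosome 2 locus and 20 chromosome 4 loci were called, 19 of the latter lower in MS, where 1.31% of all loci were called and 0.643% were called lower. In HET mice 1 and 4 were called, all 5 lower (0.779% of all loci, 0.458% lower), and in KO mice 1 higher and 13 lower (1.48%, 0.632% lower). Medians at the sparse chromosome 4 loci were -0.46 in WT, -0.30 in HET and -0.38 in KO. No locus of either cluster passed an adjusted p of 0.05 within a genotype in edgeR. An unadjusted p under 0.05 was found at 54, 23 and 47 loci in WT, HET and KO. These were 15.5%, 6.61% and 13.5% of the cluster loci, beside 6.52%, 4.36% and 7.11% of all loci.

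In WT the smallest p was at chr4:147234696-147235606, an intron locus of C230088H06Rik next to the exon locus above. Its lowest, median and highest levels were 1.71, 2.77 and 3.96 CPM in WT C and 0.178, 1.23 and 1.85 in WT MS, so that the ranges overlapped between 1.71 and 1.85 CPM. The log2 change was -1.33 ± 0.31 (adjusted p = 0.605 in edgeR, 8.1e-05 before adjustment), beside -0.27 ± 0.31 in HET and -0.66 ± 0.32 in KO. It was followed by -0.84 ± 0.24 in an intron of the noncoding gene Platr16 at chr4:145433869-145434684 and -0.94 ± 0.27 at chr4:147431704-147432811. All 3 were called without S18 to S26 too, with changes of -1.17, -0.89 and -0.90. In HET the changes with the smallest p were -0.80 ± 0.26 at chr4:145254939-145255724 near Tnfrsf1b, which encodes a TNF receptor, -1.08 ± 0.36 at chr4:145713937-145714489 near Gm26763 and -0.70 ± 0.26 at the Zfp985 locus. The last of these was not called without S18 to S26, at -0.65 ± 0.26.

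In KO the smallest p was at chr4:145781026-145782139, an intergenic locus near the pseudogene Vmn2r-ps15. Its lowest, median and highest levels were 2.76, 3.42 and 5.39 CPM in KO C and 1.39, 2.21 and 2.63 in KO MS, and these ranges did not overlap. The log2 change was -0.83 ± 0.20 (adjusted p = 0.538 in edgeR, 7.67e-05 before adjustment), against -0.07 ± 0.18 in WT and -0.02 ± 0.18 in HET. The other loci with small p in KO were chr4:147125577-147126614, an exon of C230088H06Rik and of the pseudogenes Gm13162 and Vmn2r-ps18 (-0.99 ± 0.27), and the adjusted C230088H06Rik locus above (-0.79 ± 0.23).

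Few cluster loci were called for genotype. Between KO and WT, 1 locus in each window was called, and 0.748% of all loci were. On chromosome 2 it was chr2:175608973-175609630, a member of the family of 14 near Gm11007. Median levels were 0.857 CPM in WT C and 0.969 in WT MS against 0.84 in KO C and 0.809 in KO MS, with the highest values at 2.94 and 3.24 in WT and 1.03 and 1.21 in KO. The medians were close while the top WT libraries lay above every KO library, and the log2 change was -0.80 ± 0.27 (adjusted p = 1 in edgeR, 0.00335 before adjustment). On chromosome 4 it was chr4:147592923-147593749, in repeats near Zfp985, with -0.65 ± 0.20 (adjusted p = 1, 0.00157 before adjustment), and without S18 to S26 it was -0.49 ± 0.21 and not called. Next came chr4:145781026-145782139 with -0.35 ± 0.13 (adjusted p = 1, 0.0112 before adjustment). Between HET and WT, 0 loci were called in either window, against 0.546% of all loci, and DESeq2 called 0 as well. In this comparison 2 chromosome 2 loci (2.6%) and 5 chromosome 4 loci (1.85%) had an unadjusted p under 0.05 in edgeR, beside 3.47% of all loci. The smallest p values there were at chr4:146566761-146567518 (0.45 ± 0.18), chr2:175095304-175096082 (-0.46 ± 0.19) and chr4:146815970-146817062 (0.34 ± 0.14). No cluster locus passed an adjusted p of 0.05 for genotype in edgeR. Between KO and WT 18 (5.17%) had an unadjusted p under 0.05, beside 4.08% of all loci.

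The interaction contrasts ask whether the MS effect in HET (GE1) or in KO (GE2) differed from that in WT. For GE1, 1 locus was called in each window (0.626% of all loci). At chr2:176308271-176308742 near Gm1980 the median level was 0.799 CPM in WT C and 1.41 in WT MS, but 1.62 in HET C and 1.27 in HET MS. The direction of the MS difference was opposite in the genotypes, the ranges overlapped, and the log2 interaction was -1.26 ± 0.43 (adjusted p = 1 in edgeR, 0.00439 before adjustment). The other was chr4:145254939-145255724 with -0.95 ± 0.36 (adjusted p = 1, 0.00904 before adjustment), and chr4:147234696-147235606 had 1.05 on the same scale. The chr4:145254939-145255724 value was -0.91 ± 0.40 without S18 to S26, and not called. For GE2, 1 locus was called on chromosome 4 and 0 on chromosome 2 (0.558% of all loci): chr4:145781026-145782139 with -0.76 ± 0.27 (adjusted p = 1, 0.00574 before adjustment), the locus whose KO ranges did not overlap. It was -0.64 ± 0.32 without S18 to S26, and not called. It was followed by chr2:177483074-177483829 near Zfp970 (0.83 ± 0.37) and chr4:147009952-147011699 in an intron of Gm26573 (-0.44 ± 0.20). No cluster locus passed an adjusted p of 0.05 for an interaction in edgeR. Before adjustment 7 loci of the clusters (2.01%) lay under 0.05 in GE1 and 8 (2.3%) in GE2, beside 3.71% and 3.36% of all loci.

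Among Zfp-named genes with 3 or more loci, all on chromosome 4, Zfp992 had 6 loci of which 2 were called lower in MS, Zfp600 had 5 (2 lower), Zfp993 had 5 (3 lower), Zfp982 and Zfp991 had 4 each (1 lower each), Zfp978 and Zfp981 had 3 each (1 lower each) and Zfp933 had 3 with 0 called. Of all loci 1.35% were called lower. Median log2 changes ran from -0.47 in Zfp993 to 0.05 in Zfp933. The 4 Zfp982 loci counted here overlap the annotated gene, and the upstream promoter locus above is not among them. Of the loci over the long noncoding RNAs, 17 of 77 were called for Gm26573, 23 of 69 for C230088H06Rik and 19 of 48 for Gm26624, all but 1 of each lower in MS. The loci of C230088H06Rik and Gm26624 overlap in part. Of all loci 3.63% were called. All these counts per gene include S18 to S26, and without those libraries 20 of the 64 cluster calls remained.

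Zinc-finger genes outside the windows were near the background. Of 951 loci in Zfp-named genes elsewhere, 28 (2.94%) were called for MS, beside 3.63% of all loci. Of the 28, 14 were lower and 14 higher, and the median log2 change over the 951 was 0.007. Of the 78 loci under 10 CpG sites per kb in these genes, 1 was called lower, beside 2.79% of all such loci. Genes of the corepressor pathway were counted as well. Of 18 such genes (among them Trim28 and Setdb1, Dnmt1 and Uhrf1, which maintain DNA methylation, and Zfp809 and Zfp57, KRAB zinc-finger genes that silence retroviruses and imprinted loci) 15 had loci, 71 in all. For MS 3 were called (4.23%, beside 3.63% of all loci), 1 each in Chd3, Dnmt1 and Uhrf1, and 0 of them lower. After adjustment 0 of 71 passed an adjusted p of 0.05 in edgeR. For KO against WT 2 of 71 were called, in Chd4 and Zfp809 (0.748% of all loci), for GE2 1 of 71, in Dnmt1 (0.558% of all loci), and for HET against WT and GE1 0.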

How the data were processed

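Amygdala DNA of 48 mice was captured with a methyl-CpG-binding domain and sequenced in pairs. The authors aligned the reads with Bowtie2 2.1.0, called peaks with MACS, merged them over libraries and deposited a raw read count per merged peak and library (DiffBind 2.0.9, GRCm38). Duplicate and multiply mapped reads were treated in a way not given in the sources used here. Counts of all 187695 loci were fitted with edgeR 4.0.16 (R 4.3.3; TMM scaling, trended dispersion, robust quasi-likelihood F-test, 1 term per group, 46 libraries), and p values were adjusted over all loci by the Benjamini-Hochberg method. KO MS replicates 3 and 7 were left out for their low totals. The 8 contrasts were KO and HET against WT, MS against C over genotypes and in each, and the interactions GE1 and GE2. Replicates are separate mice. The paper assigned whole litters to MS or C, and the litter of each mouse is not given in the sources used here. Mice were therefore fitted as independent, and any likeness of littermates was not taken into account. DESeq2 1.42.0 and other settings were alternatives. Steps were tested on simulated data.

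SDs of log2 levels used log2(CPM + 0.1). CpG sites, repeats and genes came from the GRCm38 sequence and GENCODE, promoters from RefSeq, and copies from minimap2 2.31 (95% identity over 50% of a locus). Python 3.11.15 and bedtools 2.31.1 were used. Named loci were, per window, those with the highest level, the highest level per kb, the greatest and smallest width and the 3 largest spread ratios, and, per contrast, loci with an adjusted p under 0.05 or otherwise the 3 with the smallest p, and Zfp-named genes with 3 or more loci. Family members, array loci, promoters and the corepressor genes named with values were chosen after their values were seen. The clusters and lists were chosen with earlier results of these data known. The sequence of 1 further locus is not reported here.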

Additional observations from a re-analysis of the deposited data

Results flagged for a closer look

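Within groups of 6 or 8 libraries, the highest and lowest values of the cluster sums and of the named loci were checked with Dixon's ratio at the 95% level. Of 186 checks 19 (10.2%) were past the critical value, where the nominal share is about 1 in 20. The named loci were chosen in part for wide spread or small p, so these shares cannot be compared as a test. The checks share libraries and are not independent.

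Summed levels stood apart in 5 of the checks. On chromosome 2 WT MS replicate 1 reached 450.4 CPM and HET MS replicate 1 453 CPM. On chromosome 4 HET C replicate 7 reached 2319 CPM, HET MS replicate 1 2321 CPM and KO MS replicate 2 2654 CPM. Of these, WT MS replicate 1, HET MS replicate 1 and KO MS replicate 2 belong to S18 to S26.

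WT MS replicate 1 also stood high at chr2:175041364-175045203 with 36.2 CPM and at chr2:175461141-175462055 with 9.05 CPM, where HET MS replicate 1 reached 6.13 CPM. Other WT MS libraries stood high at chr2:175608973-175609630 with 3.24 CPM (replicate 6), at chr2:177483074-177483829 with 3.69 CPM (replicate 7) and at chr4:147009952-147011699 with 13.5 CPM (replicate 8). WT C replicate 4 had 3.2 CPM at the Zfp985 locus.

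HET C replicate 7 stood high at chr4:145781026-145782139 with 5.26 CPM, at chr4:146815970-146817062 with 9.59 CPM and at chr4:147157051-147158381 with 10.3 CPM. Among KO C mice, replicate 1 had 32.8 CPM at chr2:175052574-175054727, replicate 8 had 6.37 CPM at chr4:147125577-147126614 and replicate 6 had the low value of 0.289 CPM at chr4:145250907-145251429. KO MS replicate 2 had 248.5 CPM at the widest chromosome 4 locus, where the next library of the group had 158.2.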

How the results depend on the processing

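As reported, 2 cluster loci were called for KO against WT, 0 for HET against WT, 64 for MS over genotypes, 21, 5 and 14 for MS in WT, HET and KO, 2 for GE1 and 1 for GE2, and the median spread ratios were 1.16 and 1.25. Of 110 values under other settings 74 stayed close and 36 moved. The cause was not tested, except that fewer loci or libraries entered where some were left out. DESeq2 called 9 for MS in HET. Total counts without TMM gave 39 for MS in WT, 3 for MS in HET and 0 for GE2, with GE1 at 3 higher and 0 lower, while the median of all loci moved to -0.11 and 0.15 for MS in WT and GE1. Loci averaging at least 20 counts gave 0 for KO against WT, 1 and 8 for MS in HET and KO, 0 for GE1 and a chromosome 4 ratio of 1.1, and chromosome 4 loci without a copy a ratio of 1.12. All 48 libraries gave 33 for MS in KO, where the share of all loci called rose from 1.48% to 5.37%, and 0 for GE2, and leaving out KO MS replicates 2 and 3 in place of 3 and 7 gave 1 for HET against WT and 4 for GE2. Without S18 to S26 there were 2 for HET against WT, 27, 8 and 11 for MS over genotypes, in WT and in HET, and a chromosome 4 ratio of 1.17. The share of all loci called for MS over genotypes fell from 3.63% to 1.26% there. A term for S42 to S48 gave 40 for MS, beside 2.39% of all loci, 9 for MS in KO and 1 for GE1. Replicate numbers did not pair the mice: deviations of same-numbered libraries correlated at a median of 0.014 over 110 pairs, and 9 of 46 libraries correlated best with their own number. With the number as a replicate block 11 were called for MS in HET, 1 for GE1 and 0 for GE2, the chromosome 4 ratio was 1.14, and 61 of the 64 MS calls were shared. Settings chosen after seeing the data were the CpG slope as a covariate (5 for KO against WT, 6 for HET against WT, 34 for MS, 3 for GE2, chromosome 2 ratio 1.05) and leaving out S18 to S26 with S42 to S48 (4 for KO against WT, 30 for MS, 8 in WT, 8 in HET, 0 for GE1). The adjusted locus kept its sign under 11 settings and an adjusted p under 0.05 in edgeR under 7. Locus means of 12.7 to 1392 counts limit the precision at the low end, and intervals were not drawn for counts.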

Other observations

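The windows were set beside the rest of the genome for the share of loci called lower in MS (p under 0.01 and log2 change beyond 0.2). Of 2040 windows of 1 Mb with 30 or more loci, the highest share was on chromosome 5 from 15 Mb, where 48 of 96 loci (50%) were called lower, around Speer4cos, a member of a duplicated testis gene family. The next, chromosome 5 from 14 Mb with Speer4e, had 40.4%, chromosome 1 from 85 Mb with Sp140, a chromatin reader of immune cells, had 37.5%, and chromosome 8 from 20 Mb had 22.2%. The chromosome 4 cluster followed at ranks 5 (from 147 Mb, 22.1%), 6 (from 146 Mb, 20.5%) and 14 (from 145 Mb, 11.8%). In the 4 windows above it 91.7%, 57.9%, 74.3% and 93.8% of loci had a copy in the reference, the median CpG density was 6.62, 10.4, 9.6 and 9.03 per kb, and the median spread ratio 2.41, 1.74, 1.55 and 1.88. Windows with few copies were also among the 15 highest. Those at ranks 10, 13 and 15 had a copy for 4.42%, 3.03% and 0% of loci, and the others of the 15 for 51.8% to 94%. The windows were looked up after the chromosome 4 result was known, neighbouring loci are not independent, and no test was run over them.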
